A study of Danio rerio with 12 samples.

Results

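The genes described are the zebrafish translation initiation factors, taken as every gene whose symbol begins with eif followed by a digit. RefSeq lists 67 such genes, and 58 of them were measured here by 129 array probes named through their RefSeq transcript. They stand among 12854 named genes and 36741 probes that were tested. The other 9 genes (eif2ak3, eif2ak4, eif3ba, eif3bb, eif3eb, eif4g1b, eif4g3a, eif4g3b and eif5b) were not analysed here. Expression was measured in whole embryos of the wild-type AB strain on 12 1-colour Agilent arrays, 3 in each of 4 groups. All embryos had been injected into the yolk when they had 1 to 4 cells. The dose was 0.25 to 1.0 pmol per morpholino, a synthetic antisense oligonucleotide that binds an mRNA and stops its translation or its splicing. The groups received control morpholino and were collected at 6 h or 24 h after fertilization, or received PCSK7 and p53 morpholinos together and were collected at the same times. Each array held RNA from a pool of 18 to 35 embryos raised at 28.5 °C. No group received the PCSK7 or the p53 morpholino alone, so the effects of the 2 cannot be told apart.

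Initiation brings a ribosome, the initiator tRNA and an mRNA together at the start codon. eIF2 carries the initiator tRNA, eIF2B reloads eIF2 with GTP, and the eIF2 kinases lower translation by phosphorylating the alpha subunit of eIF2. eIF1, eIF1A, eIF3 and eIF5 act on the small ribosomal subunit, while eIF4E, eIF4G and eIF4A bind the mRNA cap and unwind the leader, a step held back by the 4E-binding proteins when mTOR is inactive. In zebrafish the early embryo runs on mRNA stored in the egg, and its own genome takes over shortly before the earlier of the stages sampled here.

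Levels are given as log2 of the background-subtracted signal relative to the array's 75th percentile, which ranged from 401 to 509 units in the control arrays at 6 h, 692 to 984 in the control arrays at 24 h, and 630 to 1080 in the PCSK7 plus p53 arrays. The number of arrays limits the precision. A probe's level is compared only with itself across arrays, and where a gene had several probes the brightest stood for it. A change was called where limma's adjusted p (Benjamini-Hochberg, over all probes tested) was under 0.05. All probes of the initiation factors passed the filter on dim probes, and 57 of the 58 genes were well above background on all 12 arrays. The remaining gene, eif3f, lacked a value on control 6 h replicate 2, where its spot had been flagged, and was fitted on 11 arrays. No probe names pcsk7. Stage markers followed the labelled times, with 10 of 11 gastrula genes lower and all 6 skeletal muscle genes higher at 24 h in control embryos. The control arrays came from slides 1 to 3, which each held a 6 h and a 24 h array and were read in the first scan session. All PCSK7 plus p53 arrays at 6 h lay on slide 4 and all those at 24 h on slide 5, read in the second session. Morpholino and slide or scan session therefore cannot be told apart, nor can time and slide among the PCSK7 plus p53 arrays. In these pools of whole embryos, fewer cells of a type and less RNA per cell cannot be told apart.

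Most initiation factor transcripts were more abundant relative to the rest of the array at 24 h than at 6 h in control embryos. Among the 58 genes, 37 rose and 14 fell, against 48.1% and 43.1% of all genes tested, or 51 called either way against 91.2%. The rise was at least 2-fold for 29 of the 58 genes, where the background was 36.7%. The fall was at least 2-fold for 4 genes, where it was 29%, and 65.7% of all genes changed at least 2-fold in either direction. The median change of the initiation factors was 1.07 on the log2 scale and that of all genes 0.15. Scaled on the median of each array, the split was 34 higher and 21 lower, and the median of all genes moved to -0.19. The shares of all genes called under that scaling are not given here. Within the 3 slides that each held a control array of either time, the sign of the change was the same on every slide for 51 genes. Eif3f, without a difference on slide 2, was not counted, and the share over all genes was not computed.

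The eIF3 subunits, which form the scaffold that recruits the small ribosomal subunit to mRNA, rose without exception. All 14 measured eIF3 genes were higher at 24 h in control embryos, by 0.89 to 2.88 on the log2 scale, against 48.1% of all genes. All 14 remained called under each scaling tried. Eif3f was at 3.46 and 3.38 on the 2 control arrays with a value at 6 h and at 6.35, 6.30 and 6.27 on those at 24 h. Its arrays were far apart between the times and close together within them, and the rise came to 7.39-fold (log2 2.88 ± 0.06 SE, adjusted p = 3.84e-11 in limma). Eif3s6ip, which encodes the subunit also called eIF3l, rose 6.70-fold, eif3g 6.59-fold, eif3k 6.51-fold and eif3d 5.85-fold. The smallest rises were those of the loosely bound eIF3j subunit, with 1.85-fold for eif3ja and 2.28-fold for eif3jb, and of eif3s10, the gene of the large eIF3a subunit, with 1.97-fold.

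**Figure D1:**
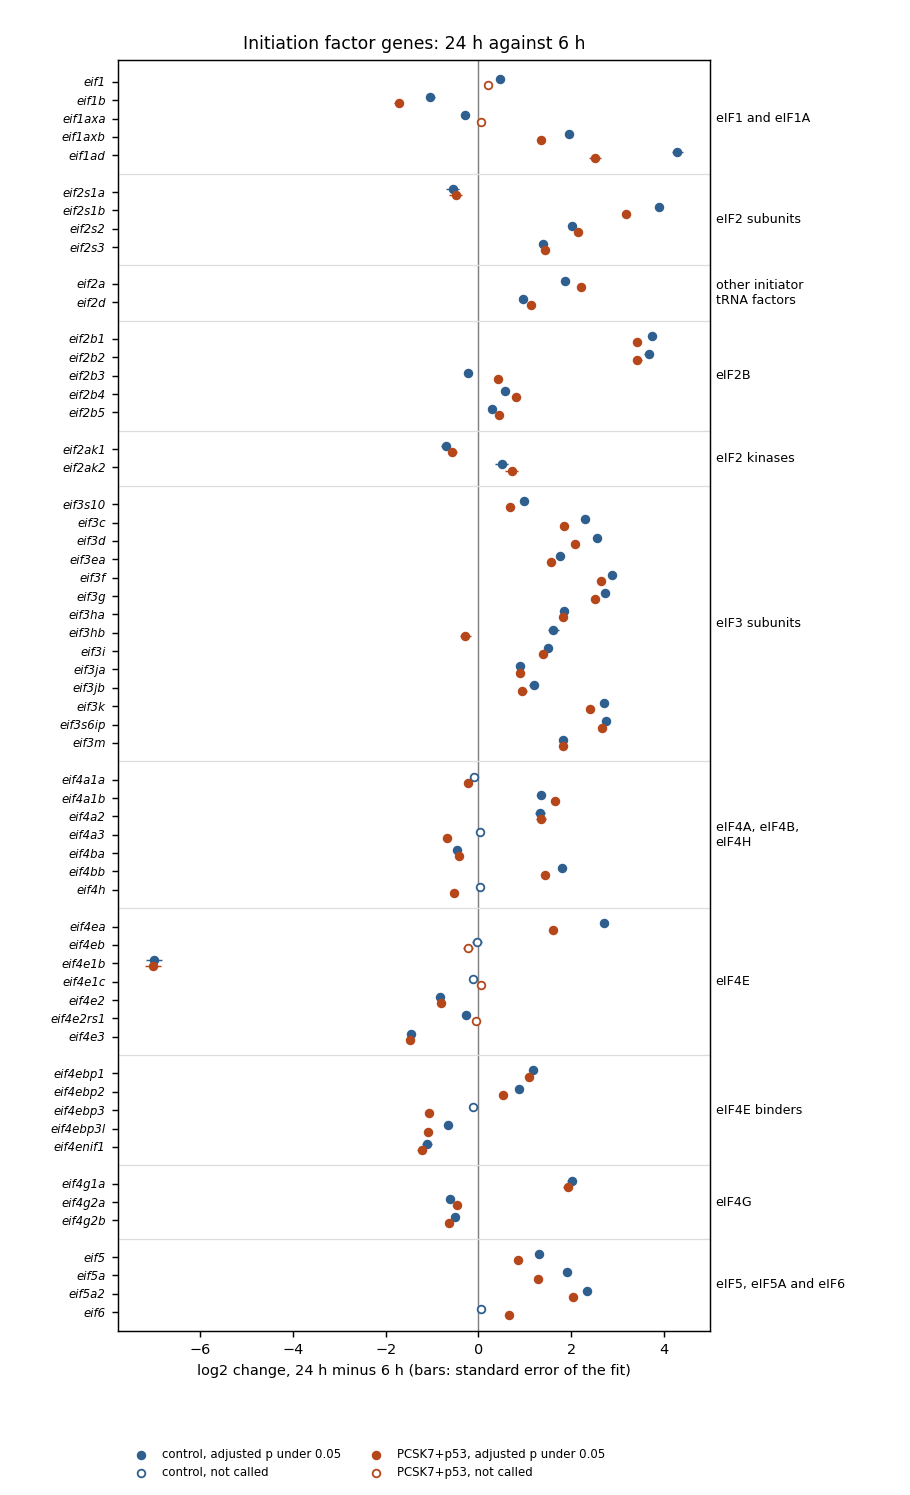
Change of each of the 58 initiation factor genes from 6 h to 24 h, on the log2 scale (horizontal axis), in control embryos (blue) and PCSK7 plus p53 embryos (red), with the standard error of the fit as bars and filled points for an adjusted p under 0.05. All eIF3 genes lie to the right of zero in control embryos, eif4e1b stands alone at -7.00 and -7.02, and eif3hb is the eIF3 gene whose points fall on opposite sides of zero.

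Among the factors that bring the initiator tRNA, paralogs moved in opposite directions. Eif2s1a and eif2s1b both encode the alpha subunit of eIF2, the part that the stress kinases phosphorylate. Eif2s1b was at 0.04, 0.01 and 0.02 on the control arrays at 6 h and at 3.96, 3.88 and 3.92 at 24 h. Eif2s1a was at 4.52, 4.50 and 4.26 at 6 h and at 4.05, 3.93 and 3.62 at 24 h. Neither gene's arrays overlapped between the times: eif2s1b was 14.9-fold higher at 24 h (log2 3.90 ± 0.05, adjusted p = 3.48e-13 in limma) and eif2s1a 1.47-fold lower (-0.55 ± 0.14, adjusted p = 0.00311). The beta and gamma subunit genes, eif2s2 and eif2s3, rose 4.03-fold and 2.62-fold. Eif2a, an alternative carrier of the initiator tRNA that is distinct from eIF2, rose 3.65-fold, and eif2d, a factor known for recycling ribosomal subunits, rose 1.94-fold.

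The 5 subunits of eIF2B, the exchange factor that returns eIF2 to its GTP-bound form, did not move together. Eif2b1, the alpha subunit gene, was at -1.38, -1.13 and -1.20 on the control arrays at 6 h and at 2.49, 2.47 and 2.52 at 24 h. This was a 13.3-fold rise (log2 3.73 ± 0.07, adjusted p = 4.12e-12 in limma). The beta subunit gene eif2b2 rose 12.7-fold. Eif2b4 and eif2b5, for the delta subunit and the catalytic epsilon subunit, rose 1.49-fold and 1.22-fold. Eif2b3, for the gamma subunit, was 1.17-fold lower (-0.23 ± 0.09, adjusted p = 0.0284), with 1 slide of 3 giving the opposite sign, and was not called after normexp background correction (-0.14, adjusted p = 0.135). Of the 2 kinases measured, eif2ak1, the heme-regulated kinase, fell 1.63-fold by its brightest probe. All 3 of its probes were called lower, with log2 changes from -3.34 to -0.71. Eif2ak2, the kinase activated by double-stranded RNA, rose 1.41-fold at a very low signal.

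The cap-binding genes held both the steepest fall and a steep rise. Eif4e1b, an eIF4E relative known from oocytes and early embryos, was at 2.45, 2.34 and 2.18 on the control arrays at 6 h and at -4.79, -4.50 and -4.73 at 24 h. Its signal was thus 128-fold lower at 24 h (log2 -7.00 ± 0.17, adjusted p = 1.81e-11 in limma) and still well above background. The 7 maternal egg transcripts measured as markers fell as well, and the part of leftover egg mRNA in the eif4e1b values was not tested. Eif4ea, 1 of the genes of the main cap-binding protein, rose 6.56-fold. Its paralog eif4eb was at 0.53, 0.20 and 0.17 at 6 h and at 0.31, 0.25 and 0.22 at 24 h, overlapping arrays with no call (adjusted p = 0.753). Eif4e3 fell 2.76-fold and eif4e2, which encodes a cap-binding protein known as a repressor, fell 1.77-fold. Eif4enif1, a transporter and binder of eIF4E, fell 2.16-fold.

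The eIF4G scaffold genes also divided. Eif4g1a, which joins eIF4E to eIF4A, rose 4.03-fold, while eif4g2a and eif4g2b, relatives that lack the eIF4E-binding region in mammals, fell 1.54-fold and 1.43-fold. Among the 4E-binding proteins, eif4ebp1 and eif4ebp2 rose 2.25-fold and 1.84-fold and eif4ebp3l fell 1.57-fold. The helicase genes eif4a1b and eif4a2 rose 2.53-fold and 2.51-fold, and eif4bb, a gene of the helicase cofactor eIF4B, rose 3.47-fold while its paralog eif4ba fell 1.38-fold.

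The start-codon factors showed the same split between paralogs. Eif1axb, a gene of eIF1A, was at 0.03, 0.02 and -0.09 on the control arrays at 6 h and at 1.94, 1.87 and 1.98 at 24 h, a 3.84-fold rise. Eif1axa was at 4.15, 4.10 and 4.18 at 6 h and at 3.99, 3.84 and 3.75 at 24 h, a 1.22-fold fall (log2 -0.28 ± 0.07, adjusted p = 0.00323 in limma). Eif1ad, which has an eIF1A-like domain and was grouped with these genes, had the largest rise of all 58 genes, 19.5-fold (4.28 ± 0.12, adjusted p = 6.5e-11). Eif1 rose 1.37-fold and its paralog eif1b fell 2.06-fold. The downstream factors eif5, which makes eIF2 hydrolyse its GTP, eif5a and eif5a2, which aid peptide bond formation, rose 2.48-fold, 3.76-fold and 5.03-fold.

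In PCSK7 plus p53 embryos the same comparison of times gave 37 genes higher and 16 lower, against 47.6% and 43.3% of all genes, with a median of 0.88. Calls in either direction numbered 53, against 90.9% of all genes. Eif2b2, eif2b1 and eif2s1b rose most, by 3.42, 3.41 and 3.18 on the log2 scale, and eif4e1b and eif1b had the largest falls (log2 -7.02 and -1.72). At least 2-fold changes were seen in 27 genes that rose and 6 that fell, against 35.4% and 29.2% of all genes and 64.5% in either direction. No array was shared with the control comparison, though the fitted spread of each probe was. Of the 37 genes that rose in controls, 35 also rose in PCSK7 plus p53 embryos, 94.6% of either list, where the shares over all genes were 90.1% and 91%. Of the 14 that fell in controls 11 also fell, which was 78.6% of the control list and 68.8% of the 16, beside 90.3% and 89.9% over all genes. Eif3hb rose in controls (1.61 ± 0.12) and fell in PCSK7 plus p53 embryos (-0.28 ± 0.12, adjusted p = 0.0407 in limma) by its brightest probe, while another of its 4 probes rose there (0.59, adjusted p = 0.0012). Eif2b3 fell in controls and rose in PCSK7 plus p53 embryos (0.41 ± 0.09, adjusted p = 0.00101). For eif1ad the rise was 19.5-fold in controls and 5.69-fold in PCSK7 plus p53 embryos, and for eif4ea 6.56-fold and 3.06-fold.

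At 6 h, 26 of the 58 initiation factor genes were higher and 7 lower in PCSK7 plus p53 embryos than in embryos given control morpholino. Among all genes, 31.9% were higher and 31.1% lower, or 63% in either direction, so the members' share was above the background for higher calls and below it for lower calls. The median difference was 0.14 on the log2 scale for the initiation factors and -0.01 for all genes. After normexp background correction the median of all genes was -0.18 and that of the initiation factors 0.21. Differences were mostly modest, with 3 genes at least 2-fold higher (background 7.72%) and none at least 2-fold lower (background 5.77%). Gastrula markers moved with this comparison: 9 of 11 were called higher and none lower, their summed level was 77.7 to 99.2 on the control arrays and 159 to 170 on the PCSK7 plus p53 arrays, and their part in the results at 6 h was not tested. The same held for the maternal egg transcripts, of which 4 of 7 were called higher, with a summed level of 163 to 175 on the control arrays and 178 to 192 on the others.

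By the brightest probes, eif3hb, a gene of the eIF3h subunit, had the largest difference at 6 h. It was at -1.44, -1.26 and -1.51 on the control arrays and at 0.18, -0.02 and 0.19 on the PCSK7 plus p53 arrays. The groups were wide apart, and the difference was 2.87-fold (log2 1.52 ± 0.12, adjusted p = 3.82e-06 in limma). All 4 probes of eif3hb were called higher, by 0.72 to 1.52. Its paralog eif3ha went the other way by its brightest probe, at 2.73, 2.74 and 2.86 in controls and 2.55, 2.38 and 2.30 in PCSK7 plus p53 embryos (-0.36 ± 0.08, adjusted p = 0.00314). A second eif3ha probe gave -0.10 with no call (adjusted p = 0.134). Of the 14 eIF3 genes 10 were higher and 2 lower at 6 h, with a median of 0.25, against 31.9% and 31.1% of all genes. Between 8 and 11 were higher under the other scalings, for which the shares of all genes are not given here. Beyond eif3hb the eIF3 differences at 6 h were small, such as 0.61 ± 0.10 for eif3jb, 0.48 ± 0.07 for eif3c and 0.40 ± 0.06 for eif3d. Eif3s10 differed by 0.66 ± 0.06, with 1 of its 3 probes called lower (-0.32, adjusted p = 0.0176). Eif3m, the other gene that was lower, differed by -0.23 ± 0.06 (adjusted p = 0.00931), a call lost after normexp background correction (-0.15, adjusted p = 0.0741).

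**Figure D2:**
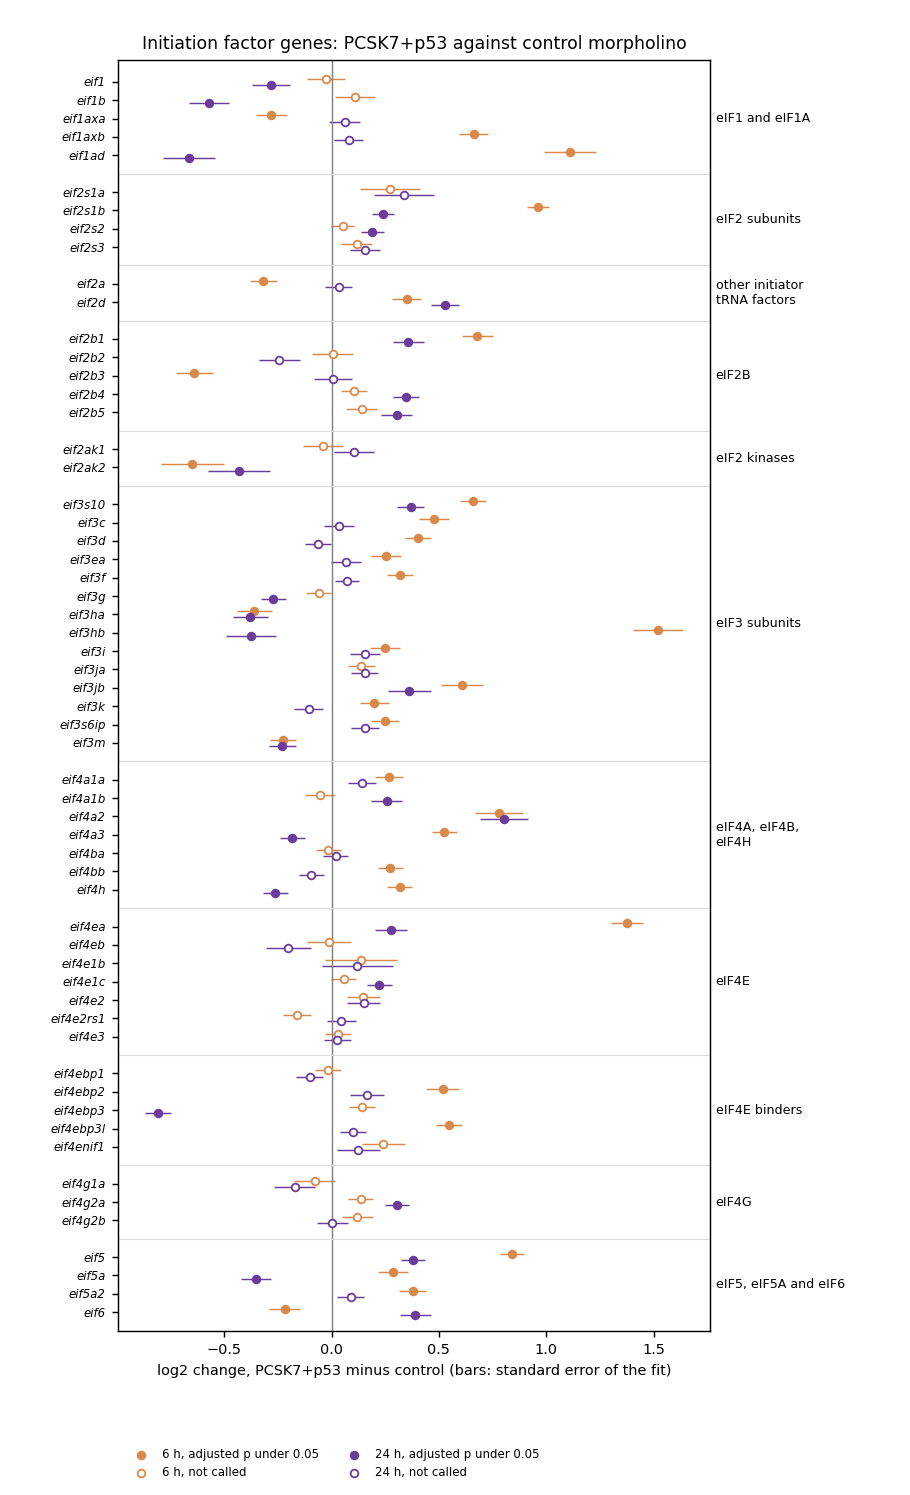
Difference between PCSK7 plus p53 and control embryos for each initiation factor gene, on the log2 scale (horizontal axis), at 6 h (orange) and 24 h (purple), with the standard error of the fit as bars and filled points for an adjusted p under 0.05. The points of eif3hb, eif4ea and eif1ad reach 1.52, 1.38 and 1.11 at 6 h, and no point reaches 1 or -1 at 24 h.

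Of the 7 cap-binding genes eif4ea was the one called at 6 h by the brightest probes, and a second eif4e1c probe was called higher (0.39). Eif4e2rs1 was called lower under quantile normalization, cyclic loess and in the authors' deposited table. Eif4ea was at -0.87, -0.75 and -0.93 on the control arrays and at 0.58, 0.41 and 0.58 on the PCSK7 plus p53 arrays. The arrays did not overlap, and the difference was 2.60-fold (log2 1.38 ± 0.07, adjusted p = 4.98e-07 in limma). Its paralog eif4eb was at 0.32, 0.34 and 0.19 in PCSK7 plus p53 embryos, within the range of the controls (-0.01, adjusted p = 0.924). A pair of eIF4E inhibitors was higher: eif4ebp3l by 0.55 ± 0.06 (adjusted p = 3.4e-05) and eif4ebp2 by 0.52 ± 0.08 (adjusted p = 0.000301). Eif4ebp1 was not called by its brightest probe (-0.02, adjusted p = 0.83), while its other 4 probes were called higher by 0.45 to 0.71. In the RNA helicase group 5 of 7 genes were higher and none lower, against 31.9% and 31.1% of all genes, among them eif4a3, which is also a core protein of the exon junction complex (0.52 ± 0.06, adjusted p = 3.6e-05), and eif4bb (0.27 ± 0.06, adjusted p = 0.00221). Eif4a2 was higher by its brightest probe (0.78 ± 0.11, adjusted p = 0.000202) and lower by its second (-0.61, adjusted p = 0.0128), and the mean of both was not called (0.09, adjusted p = 0.589).

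Among the initiator tRNA factors at 6 h, eif2s1b was called higher. Eif2s1b was at 1.03, 0.97 and 0.95 on the PCSK7 plus p53 arrays against 0.04, 0.01 and 0.02 in controls, a 1.95-fold difference (log2 0.96 ± 0.05, adjusted p = 5.16e-07 in limma). Eif2s1a was at 4.56, 4.72 and 4.81 against 4.52, 4.50 and 4.26, also above all controls but not called (0.27, adjusted p = 0.116), and its 2 dimmer probes were called higher by 0.60 and 0.38. The difference between the paralogs was not tested. Eif2b1 was higher by 0.68 ± 0.07 (adjusted p = 2.94e-05) and eif2b3 lower by 0.64 on the same scale. For eif2b3 the control arrays lay at 3.50, 3.53 and 3.33 and the PCSK7 plus p53 arrays at 2.88, 2.78 and 2.78, a 1.56-fold difference (-0.64 ± 0.09, adjusted p = 0.000152). Eif2ak2 was lower by a similar size (-0.65 ± 0.15, adjusted p = 0.0033) at a very low signal, between -6.11 and -5.03 on the 6 arrays. Eif2a was lower (-0.32 ± 0.06, adjusted p = 0.00164) and eif2d higher (0.35 ± 0.07, adjusted p = 0.00128).

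In the eIF1 and eIF1A group, eif1ad was at -0.69, -0.71 and -1.15 on the control arrays and at 0.32, 0.19 and 0.28 on the PCSK7 plus p53 arrays at 6 h. All 3 arrays of the latter lay above all controls, by 2.16-fold on average (log2 1.11 ± 0.12, adjusted p = 3.46e-05 in limma). Eif1axb was higher (0.66 ± 0.07, adjusted p = 1.97e-05) and eif1axa lower (-0.28 ± 0.07, adjusted p = 0.00665), although the eif1axa call was lost after normexp background correction (-0.17, adjusted p = 0.0521). Eif5 was at 3.71, 3.77 and 3.75 in controls and at 4.61, 4.60 and 4.54 in PCSK7 plus p53 embryos, 1.79-fold higher (0.84 ± 0.06, adjusted p = 1.53e-06). Eif6, which keeps free large subunits from joining small ones, was slightly lower (-0.22 ± 0.07, adjusted p = 0.0223), and this call was lost without control 6 h replicate 1 (adjusted p = 0.0604), PCSK7 plus p53 6 h replicate 2 (0.0603) or replicate 3 (0.0853), and when only the arrays compared were fitted (0.0503).

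**Figure D3:**
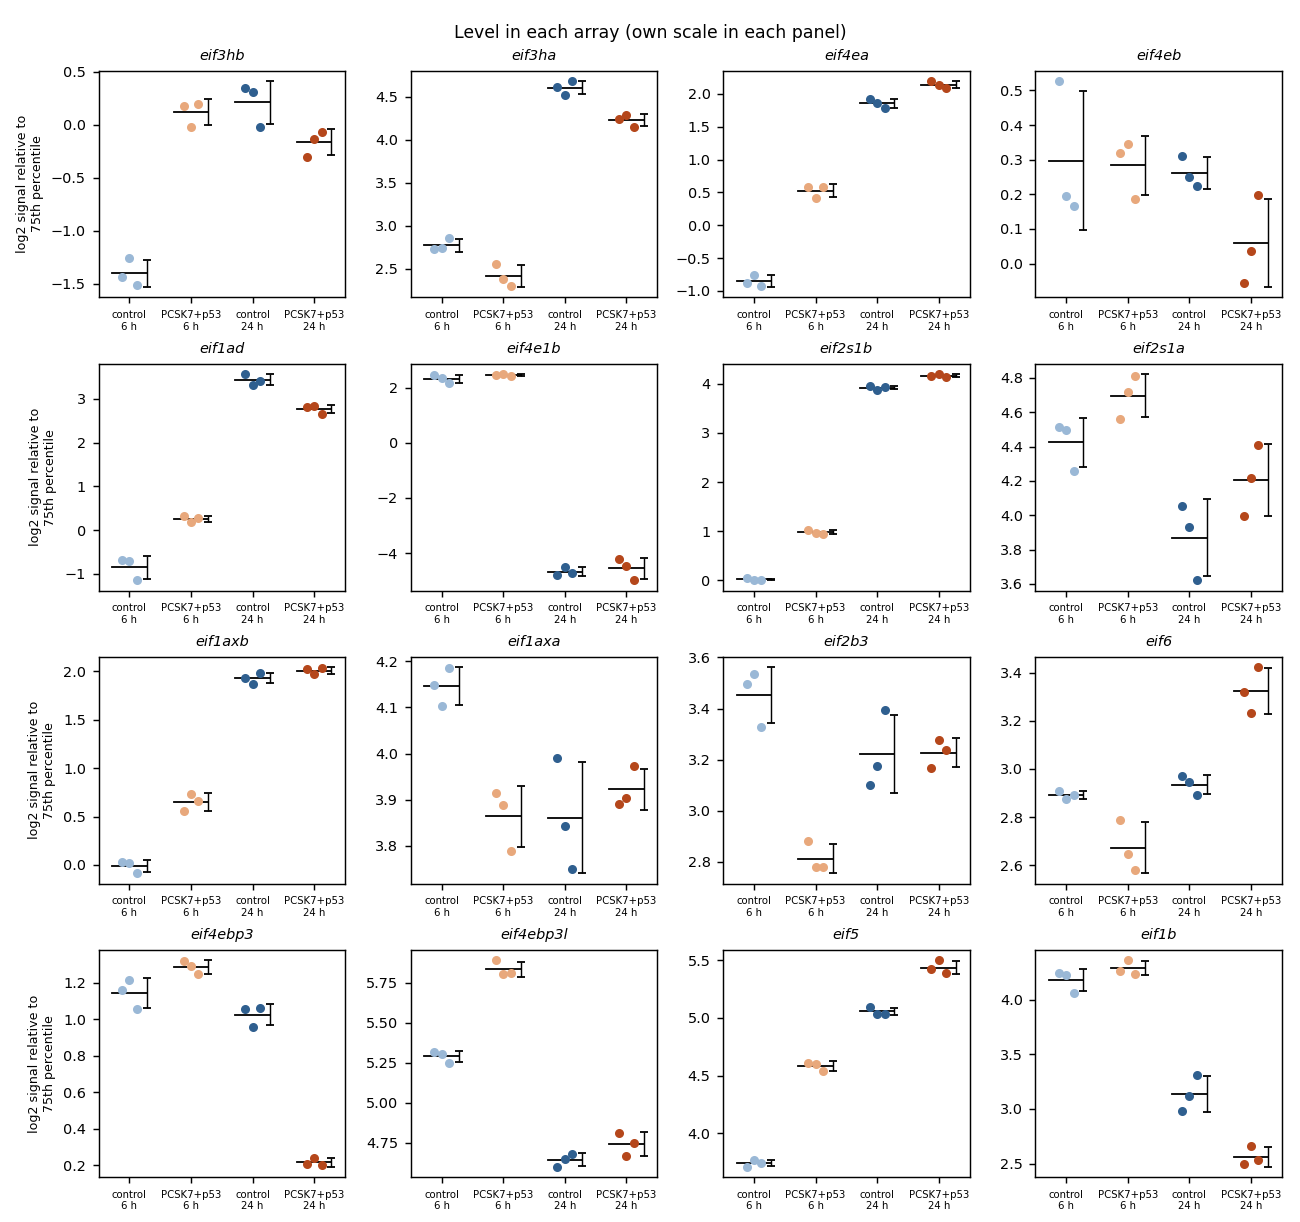
Level of 16 initiation factor genes on each of the 12 arrays, as log2 signal relative to the array's 75th percentile (vertical axis, with its own range in each panel), by group; the line is the mean of the arrays and the bar their SD. The 3 PCSK7 plus p53 arrays at 6 h sit above all 3 control arrays for eif3hb, eif4ea, eif1ad, eif2s1b, eif1axb and eif5, and below them for eif2b3, eif3ha, eif1axa and eif6.

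At 24 h the differences between PCSK7 plus p53 and control embryos were smaller. Of the 58 genes 15 were higher and 12 lower, against 21% and 25.8% of all genes, and the share called either way was 46.6% beside a background of 46.9%. By their brightest probes none of the 58 differed by 2-fold or more, against 5.83% of all genes. Eif4g1a was not called by its brightest probe (-0.17, adjusted p = 0.165 in limma). Its other 5 probes were called lower, reaching -1.19 on the log2 scale. How many of the 58 genes were called in each direction depended on the scaling. Quantile normalization gave 25 higher and 8 lower, cyclic loess 27 and 10, and scaling on the median 21 and 10. Of 57 genes in the authors' deposited table, 25 were higher and 10 lower. Gastrula markers were still higher at this time, with 6 of 11 called and a summed level of 6.68 to 7.10 on the control arrays and 9.01 to 11.8 on the PCSK7 plus p53 arrays. All 4 lens markers were called lower, with a summed level of 9.61 to 11.8 against 2.89 to 4.81, and 3 of the 6 skeletal muscle markers were lower with none higher. Of the 7 maternal egg transcripts 4 were called higher and 1 lower, with a summed level of 20.1 to 20.8 on the control arrays and 16.7 to 18.0 on the others. The part of these markers in the results at 24 h was not tested.

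By the brightest probes, the largest difference at 24 h was that of eif4ebp3, a 4E-binding protein gene. It was at 1.05, 0.96 and 1.06 on the control arrays and at 0.21, 0.24 and 0.20 on the PCSK7 plus p53 arrays. The groups were clearly apart, at 1.75-fold (log2 -0.81 ± 0.06, adjusted p = 1.17e-05 in limma). Its relative eif4ebp3l was not called by its brightest probe (0.10, adjusted p = 0.203), while its second probe was called higher (0.56). Of the 5 probes of eif4ebp1, 4 were called higher, by up to 0.63. Its brightest probe was not called (-0.10, adjusted p = 0.202). Eif4a2, an eIF4A helicase gene, was the highest in the other direction by its brightest probe (0.80 ± 0.11, adjusted p = 0.000335), but its second probe gave -0.18 with no call, and the mean of both probes was not called (0.31, adjusted p = 0.0776). Eif2d was higher by 0.53 ± 0.07 (adjusted p = 0.000185) and eif5 by 0.38 ± 0.06 (adjusted p = 0.000428). Among the eIF2B subunits eif2b1, eif2b4 and eif2b5 were higher, by 0.36 ± 0.07 (adjusted p = 0.00278), 0.35 ± 0.06 (adjusted p = 0.00116) and 0.30 ± 0.07 (adjusted p = 0.00612). Eif4g2a was higher by 0.30 ± 0.06 (adjusted p = 0.00196). Eif4g2b was not called by its brightest probe, while 2 of its 3 probes were called lower, reaching -0.55.

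Of the 5 genes grouped under eIF1 and eIF1A, 3 were lower at 24 h by their brightest probes and none was higher. The shares over all genes were 25.8% and 21%. Eif1ad, higher at 6 h, was now at 2.81, 2.84 and 2.66 on the PCSK7 plus p53 arrays against 3.57, 3.32 and 3.41 in controls, 1.58-fold lower (log2 -0.66 ± 0.12, adjusted p = 0.00157 in limma). Eif1b was at 2.50, 2.67 and 2.53 against 2.98, 3.12 and 3.31, 1.49-fold lower (-0.57 ± 0.09, adjusted p = 0.00079). The second eif1b probe gave -0.22 with no call. Eif1 was lower by a smaller amount (-0.28 ± 0.09, adjusted p = 0.0256), a call lost without control 24 h replicate 3 (adjusted p = 0.0948), PCSK7 plus p53 24 h replicate 2 (0.0626) or replicate 3 (0.0877), with scaling on the median (0.0564) and with the replicate block (0.0502). Eif5a was also lower (-0.35 ± 0.07, adjusted p = 0.0024), though not called after quantile normalization (-0.15, adjusted p = 0.0596). Eif6 was higher at 24 h, at 3.32, 3.23 and 3.42 against 2.97, 2.95 and 2.89 (0.39 ± 0.07, adjusted p = 0.00158).

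The eIF3 genes had no common direction at 24 h, with 2 higher and 4 lower of 14, against 21% and 25.8% of all genes. These counts turned to 9 higher and 2 lower under quantile normalization, for which the shares of all genes are not given here. The lower genes were eif3ha (-0.38 ± 0.08, adjusted p = 0.00351 in limma), eif3hb (-0.38 ± 0.12, adjusted p = 0.0242), eif3g (-0.27 ± 0.06, adjusted p = 0.00396) and eif3m (-0.23 ± 0.06, adjusted p = 0.0122). For eif3ha a second probe was called in the opposite direction (0.22, adjusted p = 0.008). Eif3hb lost its call without control 24 h replicate 1 (adjusted p = 0.0834), control 24 h replicate 2 (0.083) or PCSK7 plus p53 24 h replicate 1 (0.0884). Of its 4 probes 2 were called lower, and their mean was not called (-0.29, adjusted p = 0.0568). Eif3g was not called after quantile normalization (-0.02, adjusted p = 0.814), cyclic loess (-0.14, adjusted p = 0.0829) or in the authors' deposited table (0.00 to 2 decimals, adjusted p = 0.98). Eif3s10 and eif3jb were higher, by 0.37 ± 0.06 and 0.36 ± 0.10, the latter without a call when control 24 h replicate 2 (adjusted p = 0.0537) or PCSK7 plus p53 24 h replicate 1 (0.0515) was left out. Eif2ak2 was lower (-0.43 ± 0.15, adjusted p = 0.0343), a call lost without control 24 h replicate 2 or 3 or PCSK7 plus p53 24 h replicate 1 or 3 (adjusted p from 0.0568 to 0.124), with the replicate block (0.0603) and in a robust fit with an intensity trend (0.0663).

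The 2 comparisons of morpholinos share no array, though they share the fitted spread of each probe, and their calls overlapped in part. Of the 26 genes higher at 6 h, 8 were higher at 24 h as well, which was 30.8% of the former and 53.3% of the 15 latter: eif2b1, eif2d, eif2s1b, eif3jb, eif3s10, eif4a2, eif4ea and eif5. Over all genes these shares were 31.2% and 47.4%. Of the 8, eif3s10 and eif4a2 had a probe called in the opposite direction at 6 h. By their brightest probes another 5 were higher at 6 h and lower at 24 h, namely eif1ad, eif3hb, eif4a3, eif4h and eif5a. They made up 19.2% of the 26 and 41.7% of the 12 lower at 24 h, beside 17.9% and 22.1% over all genes. Eif2ak2, eif3ha and eif3m were lower at both times by their brightest probes. This was 42.9% of the 7 lower at 6 h and 25% of the 12, beside 37.2% and 44.7% over all genes. A second eif3ha probe was called higher at 24 h (0.22). Eif6 was lower at 6 h and higher at 24 h, which was 14.3% of the 7 and 6.67% of the 15, beside 14.8% and 21.9% over all genes.

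The difference between the 24 h and the 6 h effect was called for 27 of the 58 genes, 46.6% beside a background of 50.3%. The effect was lower at 24 h for 21 genes and higher for 6, against 27.8% and 22.4% of all genes. A difference of at least 2-fold was seen for 3 genes with a lower effect at 24 h and for none with a higher one, against 8.85% and 6.15% of all genes. Under quantile normalization the split was 14 and 10. It was 14 and 11 both under cyclic loess and in the authors' deposited table. Eif3hb had the largest difference (-1.90 ± 0.17, adjusted p = 2.19e-05 in limma), followed by eif1ad (-1.77 ± 0.17, adjusted p = 3.84e-05), eif4ea (-1.10 ± 0.11, adjusted p = 3.63e-05) and eif4ebp3 (-0.95 ± 0.09, adjusted p = 2.76e-05). In the other direction stood eif2b3 (0.65 ± 0.12, adjusted p = 0.00203) and eif6 (0.61 ± 0.10, adjusted p = 0.000871). By their brightest probes none of the 14 eIF3 genes had a higher effect at 24 h by this test, though a second eif3ha probe did (0.32). A lower effect was called for 6, eif3hb, eif3d, eif3c, eif3k, eif3s10 and eif3f. Of these 6, eif3hb alone was also called under quantile normalization (adjusted p = 0.0501 for eif3d, the nearest of the others). The eif3f and eif3k calls were also lost with the replicate block (adjusted p = 0.0541 and 0.0508) and with single arrays left out.

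Of the 58 genes, 40 had more than 1 probe, with up to 6, and for some of them the probes did not tell the same story. At 6 h every probe was called in the same direction for 15 of the 40 genes, 14 higher and 1 lower, and at 24 h for 10, 6 higher and 4 lower. Neither these counts nor those for development below were set against all genes. Probes were called in opposite directions for eif3s10 and eif4a2 at 6 h, for eif3ha and eif4h at 24 h, for eif4h in control development, and for eif3hb and eif4h in PCSK7 plus p53 development. In control development 33 of the 40 genes had all probes called one way, 24 higher and 9 lower. The exceptions were wide in places: the 4 probes of eif4h, a helicase cofactor, changed from 6 h to 24 h by 0.04, 1.92, -0.27 and -0.23. At 24 h its brightest probe was lower in PCSK7 plus p53 embryos (-0.26 ± 0.06, adjusted p = 0.00431) and its dimmer ones differed by 0.00, 0.40 and 0.52, so that the mean of all was higher (0.17, adjusted p = 0.0499). Among the 4 probes of eif5a2, 2 rose by 2.33 and 2.40 and the others changed by 0.16 and -0.02. For eif3s10 the 3 probes rose by 0.97, 2.91 and 0.63, so the order of eIF3 genes given above holds only for the brightest probes.

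**Figure D4:**
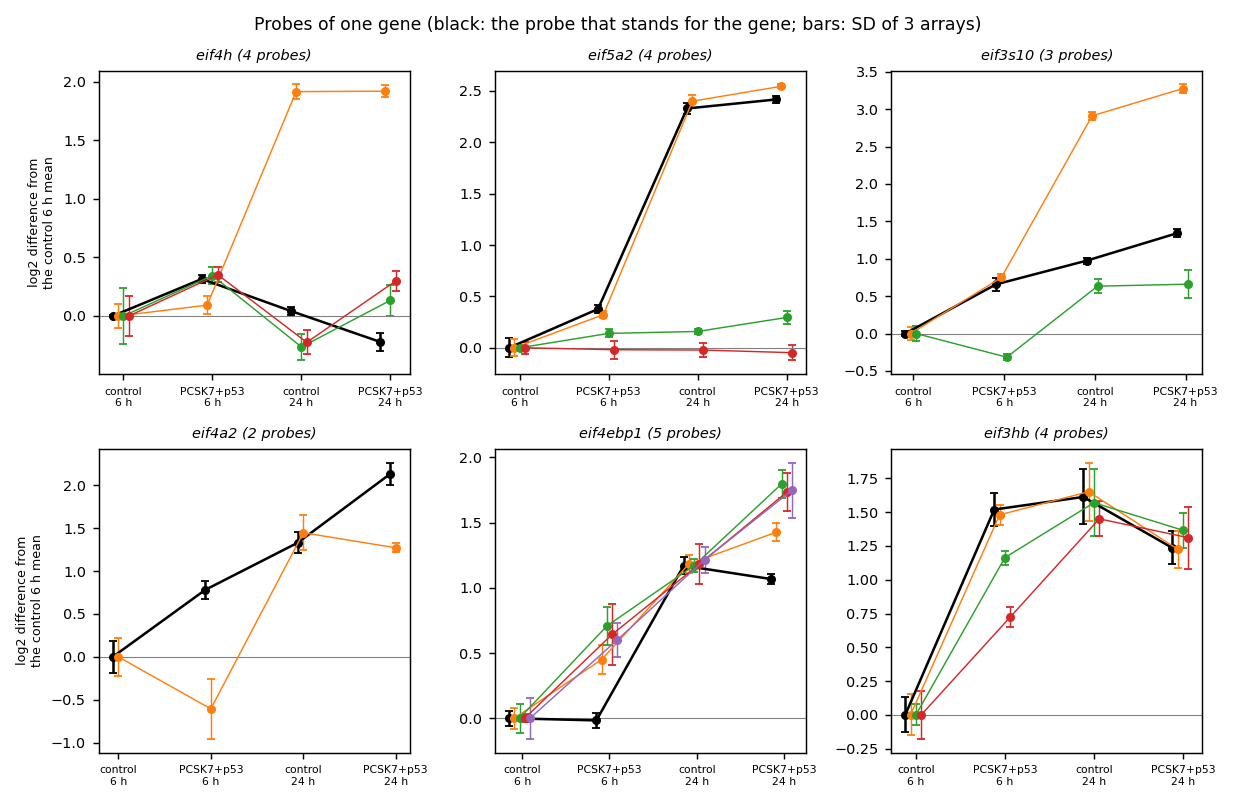
Group means of each probe of 6 initiation factor genes, as the log2 difference from that probe's own mean on the control arrays at 6 h (vertical axis), with the SD of 3 arrays as bars and the brightest probe in black. All 4 probes of eif3hb are 0.72 to 1.52 higher in PCSK7 plus p53 embryos at 6 h, 1 probe of eif4h rises by 1.92 in control embryos at 24 h while its others reach at most 0.04, and the probes of eif5a2 divide there into a pair at 2.33 and 2.40 and a pair at 0.16 and -0.02.

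Other genes of translation were read from lists. Their median differences at 6 h were 0.06 for cap-binding and eIF4F regulators, -0.05 for other start-codon genes, 0.08 for elongation, -0.13 for mTOR, 0.32 for genes downstream of eIF2 phosphorylation and 0.22 for tRNA synthetases, beside -0.01 for all genes. The counts that follow stand beside the shares of all genes called, which were 31.9% higher and 31.1% lower at 6 h and 21% and 25.8% at 24 h. Of 23 cap-binding and eIF4F regulators 5 were higher and 7 lower at 6 h, and 3 higher and 4 lower at 24 h. Larp1, which controls mRNAs of the translation machinery under mTOR, was lower at both times (-1.24 ± 0.12 and -1.04 ± 0.12, adjusted p = 1.22e-05 and 8.8e-05 in limma). Pdcd4a, an inhibitor of eIF4A, was higher at 6 h (0.64 ± 0.07, adjusted p = 3.28e-05). Pabpc1l, the egg form of the poly(A)-binding protein, fell by 9.01 on the log2 scale from 6 h to 24 h in controls. Of 8 other start-codon and subunit-joining genes 2 were higher and 2 lower at 6 h, and 2 and 1 at 24 h. Dhps, whose enzyme modifies eIF5A, was higher at 6 h (0.91 ± 0.09, adjusted p = 1.57e-05) and abce1, which splits ribosomes, was lower (-0.42 ± 0.06, adjusted p = 0.000137).

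The elongation and termination list had 4 genes higher and 3 lower of 19 at 6 h, below the share of all genes called either way, and 1 higher and 9 lower at 24 h. Eef2a.2, a dim gene of the translocation factor eEF2, was lower at 6 h (-0.98 ± 0.28, adjusted p = 0.0124 in limma) and at 24 h (-1.28 ± 0.28, adjusted p = 0.00455). At 24 h eef1a1b and eef1db, for parts of the elongation factor that delivers tRNA, also differed (-0.87 ± 0.10 and -0.71 ± 0.06). Eef2k, the kinase that inhibits elongation, was not well above background on any control array at 6 h and was at least 2.49-fold higher in PCSK7 plus p53 embryos (adjusted p = 2.36e-05 in limma). This bound sets the mean of the brighter arrays against the lowest signal well above background on the dimmer ones. Of 20 mTOR pathway genes 6 were higher and 8 lower at 6 h and 4 and 6 at 24 h. Ddit4, an inhibitor of mTOR induced by stress, was lower at 6 h (-2.19 ± 0.21, adjusted p = 1.59e-05), and castor1, an arginine sensor of the pathway, was higher (1.28 ± 0.15, adjusted p = 5.17e-05).

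Genes downstream of eIF2 phosphorylation were divided, with 9 higher and 7 lower of 21 at 6 h and 4 and 7 at 24 h. Atf4a, a gene of the transcription factor whose translation rises when eIF2 is phosphorylated, was lower at 6 h (-0.91 ± 0.09, adjusted p = 1.28e-05 in limma) and higher at 24 h (0.49 ± 0.09, adjusted p = 0.00121). Vldlr, a lipoprotein receptor, was higher at both times (1.63 and 0.50). Mthfd2, an ATF4 target of folate metabolism in mammals, was higher at 6 h (1.00 ± 0.09, adjusted p = 8.13e-06). Of 16 cytosolic aminoacyl-tRNA synthetase genes, which charge tRNAs, 10 were higher and 4 lower at 6 h, against 31.9% and 31.1% of all genes, and 4 and 1 at 24 h, against 21% and 25.8%. Aars1 was the most changed at both times (1.09 ± 0.06 and 0.58 ± 0.06). In control development 13 of these 16 rose and 2 fell, against 48.1% and 43.1% of all genes.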

How the data were processed

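Expression was measured on 12 arrays, 3 pools of embryos per group. Groups follow the labels, which do not state whether pools were separate clutches; the p-values therefore cover only variation among these pools, possibly technical. Deposited scanner files give a spot intensity from which Feature Extraction had subtracted background, per the file headers (10.7.1.1 for the control arrays, 10.7.3.1 for the others, and 10.7.1 per the submitters' processing notes). The authors' deposited table of processed intensity served as an alternative. Here flagged spots were removed, spots of a probe averaged, and log2 of the deposited processed intensity taken minus that of the array's 75th percentile. The 36741 probes that every array of some group measured well above background were kept, and named by RefSeq transcript. Group means over all 12 arrays were fitted with limma 3.58.1 in R 4.3.3 (lmFit, eBayes; Benjamini-Hochberg over kept probes), with 5 contrasts, and the steps were tested on simulated data. The members and gene lists were chosen with earlier results of these data known. Full statistics were given for up to 10 called genes per direction and comparison, and every gene called for the difference between effects was named. Alternatives covered background correction, scaling, filters, probe choice, blocks, weights, threshold and each replicate left out.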

Additional observations from a re-analysis of the deposited data

Results flagged for a closer look

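The effect of PCSK7 plus p53 morpholinos differed between 24 h and 6 h for 27 initiation factor genes by limma's test of the difference itself (adjusted p under 0.05), and these are given as the 24 h effect minus the 6 h effect on the log2 scale. The genes grouped under eIF1, eIF1A and the initiator tRNA factors in this set were eif1ad (-1.77), eif2s1b (-0.72), eif1b (-0.68), eif1axb (-0.58), eif1axa (0.34) and eif2a (0.35). The eIF2B genes were eif2b1 (-0.32), eif2b4 (0.24) and eif2b3 (0.65). The eIF3 genes were eif3hb (-1.90), eif3d (-0.47), eif3c (-0.44), eif3k (-0.30), eif3s10 (-0.29) and eif3f (-0.25). Among cap-binding, helicase and inhibitor genes they were eif4ea (-1.10), eif4ebp3 (-0.95), eif4a3 (-0.71), eif4h (-0.58), eif4ebp3l (-0.45), eif4bb (-0.37), eif4ebp2 (-0.35) and eif4a1b (0.31). The downstream factors were eif5a (-0.64), eif5 (-0.46), eif5a2 (-0.29) and eif6 (0.61). Some of these calls depended on single arrays. That of eif2b4 was kept in 13 of 26 alternatives, and was lost with the replicate block (adjusted p = 0.0647) and without control 6 h replicate 1 or 2, control 24 h replicate 2 or 3, PCSK7 plus p53 6 h replicate 2 or 3, or any PCSK7 plus p53 24 h replicate (0.0582 to 0.0858). That of eif3f was kept in 9 of 24, and was lost without control 6 h replicate 3, control 24 h replicate 1 or 2, or any PCSK7 plus p53 array (0.0506 to 0.108). Eif3k lost its call without control 6 h replicate 3, control 24 h replicate 1, PCSK7 plus p53 6 h replicate 3 or 24 h replicate 1 (0.053 to 0.0575). Eif2b1 lost it without control 6 h replicate 1, control 24 h replicate 3, or PCSK7 plus p53 replicate 1 of either time (0.0504 to 0.0564), and in the authors' deposited table (0.0622). Eif4a1b lost it without control 6 h replicate 3, control 24 h replicate 1 or 2, PCSK7 plus p53 6 h replicate 1 or 24 h replicate 3 (0.0505 to 0.0624). Eif4ebp2 lost it without control 6 h replicate 2, control 24 h replicate 1 or PCSK7 plus p53 24 h replicate 1 (0.0543 to 0.0565), and under quantile normalization (0.0863), cyclic loess (0.174), scaling on the median (0.0663) and in the authors' deposited table (0.0888). Eif5a2 lost its call under quantile normalization (0.556), cyclic loess (0.5355) and scaling on the median (0.051). It was also lost in the authors' deposited table (0.883) and with the mean of its probes (0.26). Eif3s10 lost its call under quantile normalization (0.0799), cyclic loess (0.291) and scaling on the median (0.0528). The same held after normexp background correction (0.116) and with the mean of its probes (0.332). After normexp background correction eif2b1 was not called either (-0.09, adjusted p = 0.505). For eif1ad, eif3hb, eif4a3, eif4h, eif5a and eif6 the 2 effects were themselves called in opposite directions by the brightest probes. With the mean of its probes eif4h was called higher at 24 h (0.17, adjusted p = 0.0499). Its difference was then not called (-0.11, adjusted p = 0.328). The eif6 call at 6 h and the eif3hb call at 24 h were each lost in 6 of 27 alternatives. That of eif5a at 24 h was lost under quantile normalization (0.0596). Each of the differences between effects sets the change from slide 4 to slide 5 against the changes within slides 1 to 3. Slide therefore cannot be told apart from the difference between effects in any of them.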

How the results depend on the processing

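Across 28 alternatives, 2663 of 2795 recomputed values of named genes kept their direction and their side of the threshold, 128 kept the direction and lost the call, and 4 changed sign. Those 4 were eif4h at 24 h with the mean of all its probes (0.17), and the difference between effects of eif3f under quantile normalization (0.03511), cyclic loess (0.002556) and in the authors' deposited table (0.07498). Among these values, all lost calls and sign changes fell in the comparisons of morpholinos or the difference between effects. The pool also holds the largest changes from 6 h to 24 h, where no call was lost. At 24 h the number of genes called was 27, and it was 17 at an adjusted p under 0.01 and 16 when every probe had to be called one way. The 15 higher calls became 25 under quantile normalization, 27 under cyclic loess, 25 in the authors' deposited table and 8 with every probe called one way, and the 12 lower calls became 7 at an adjusted p under 0.01. For the difference between effects the 6 higher calls became 10 under quantile normalization, 11 under cyclic loess, 11 in the authors' deposited table and 3 at an adjusted p under 0.01. Leaving out each replicate in turn gave 31 to 34 genes called at 6 h and 24 to 28 at 24 h. Same-numbered arrays share a slide in the control groups and nothing known otherwise, and their deviations correlated between -0.053 and 0.016, so the numbers were not treated as a pairing. With the replicate block 32 genes were called at 6 h and 24 at 24 h, and among control arrays each 6 h array correlated best with the 24 h array of its own number and slide. With slide as a random block (consensus correlation -0.12) the counts were 37 and 29. The planned normexp correction on the mean spot signal was not run, and the median signal was used instead, with local background capped at the 99th percentile. The rule on every probe, that normexp setting and the fit of control arrays with slide as a fixed block (50 genes called in development) were chosen after seeing the data. The shares of all genes called under these alternatives are not given here, and why the settings moved the counts was not tested.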
